A study of Homo sapiens with 16 samples.

Results

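The transcripts described here are those of the replicative helicase and of its activation partners. The ring subunits are MCM2, MCM3, MCM4, MCM5, MCM6 and MCM7. The partners are the scaffold MCM10, the helicase cofactor CDC45, and GINS1 and GINS2 of the GINS complex. These 10 genes were chosen by gene symbol from the 37864 genes in the count table. All 10 were among the 17991 genes with enough counts to be tested. Earlier results of these data were known when they were chosen. Counts of called members beside shares of all genes may in part reflect that choice. The cells were MDA-MB-231, an established human triple-negative breast cancer line, treated with the solvent DMSO, with afatinib, with paclitaxel, or with afatinib and paclitaxel together (the combination). Afatinib is an irreversible inhibitor of the EGFR family of receptor kinases, and paclitaxel stabilises microtubules and disturbs mitosis. Each group held 4 sequenced libraries, 16 in all. The sources used here give neither a dose nor a duration of treatment.

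DNA replication starts from sites that are prepared in G1 and used in S phase. The proteins MCM2 to MCM7 form a ring that ORC, CDC6 and CDT1 load onto DNA as an inactive pair of hexamers. At the start of S phase, the kinase CDC7 with its partner DBF4, together with cyclin-dependent kinases, brings CDC45 and GINS to each ring, and the assembled CDC45-MCM-GINS complex is the active helicase. MCM10 joins at this step and is needed for the helicase to begin unwinding. Genes of this machinery are known targets of the E2F transcription factors, whose activity peaks around the entry into S phase, and they are widely used as markers of proliferating tumour cells.

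The total count per library lay between 28.4M and 48.1M (median 42.7M). Levels are given as CPM (counts scaled to library size, here adjusted by the trimmed mean of M values, TMM), and changes as log2 fold changes ± SE from the quasi-likelihood test of edgeR, where the threshold for calling a gene was a Benjamini-Hochberg adjusted p of 0.05 over all tested genes. The RNA concentration in the labels was higher for replicates 1 and 2 of each group (345.6 to 1290.9 ng/µl) and lower for replicates 3 and 4 (118 to 330 ng/µl). Of all tested genes, 69.5% differed between these 2 concentration sets, so the set was a term in every fit. The concentration also differed by treatment within the sets. In replicates 1 and 2 it was 1050.5 and 1290.9 ng/µl in DMSO, 1134.9 and 868.6 after afatinib, 345.6 and 429.7 after paclitaxel and 685.1 and 561.5 in the combination, and in replicates 3 and 4 it was 292.1 and 330, 180.6 and 188, 300.5 and 204.2, and 167.6 and 118. With log2 concentration as a covariate in place of the set, 10 members were called lower under paclitaxel and 10 in the combination, as with the set term. The share of all tested genes called in that fit is not given here, so these counts have no background beside them. Since concentration differed by treatment, that fit cannot separate the effects of concentration and treatment. The part of concentration in the changes below was not tested. The line's markers VIM (849 to 1227 CPM) and AXL (1315 to 2019 CPM) were high in every library, and ESR1 and CDH1 did not exceed 0.51 and 0.39 CPM. PGR (3.67 to 6.32 CPM) and EPCAM (6.89 to 12.2 CPM), also listed beforehand as low or absent, were above those levels in every library. PTPRC of blood cells and LUM of fibroblasts did not exceed 0.11 and 0.10 CPM. The endothelial genes VWF, PECAM1 and CDH5 reached 0.66, 1.79 and 2.47 CPM. PDGFRB and COL1A1 of fibroblasts reached 7.59 and 20.4 CPM. Whether replicates came from separate cultures is not stated in the labels, and the p-values then reflect only how far these samples spread, which may be technical. In RNA from whole cultures, fewer cells in the phase that makes a transcript and less of it per cell cannot be told apart.

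The proximal promoters are shown because the members moved together and because E2F binding letters are well described. RefSeq promoter windows on GRCh38.p14, 250 bases before to 50 after the gene's start, were found for 8 members: MCM2, MCM3, MCM6, MCM7, MCM10, CDC45, GINS1 and GINS2. Both strands were searched for the E2F-type words TTTCCCGC, TTTCGCGC, TTTGCCGC and TTTGGCGC. Of these 8 promoters 6 held at least 1 such word, against 3.33% of the 27305 promoters of the same length. With the final C of each word left off, a choice made after the sequences had been seen, the resulting 7-letter words stood in all 8, against 8.69% of all promoters. These shorter words are contained in the longer ones, so the counts overlap. CCAAT, the core of the box bound by NF-Y, stood on either strand in 7 of the 8 and in 35.7% of all promoters. A match describes letters in a window and was not tested for binding.

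The words are in capitals in the lines below, 5′ to 3′ along each gene's own strand, 1 word per member with up to 11 flanking bases on each side. MCM2 (chr3:127598402-127598431, plus strand) and MCM10 (chr10:13161552-13161580, plus strand) carry theirs just after the start, as does GINS1 (chr20:25407667-25407696, plus strand). The word of MCM3 (chr6:52284728-52284757, minus strand) spans the start. Those of MCM7 (chr7:100101388-100101417, minus strand), CDC45 (chr22:19479884-19479912, plus strand) and GINS2 (chr16:85688967-85688996, minus strand) lie shortly before it. The start meant here is that of the RefSeq entry, which can differ from the GENCODE gene bounds given further below. By those bounds the words of MCM3, MCM7, CDC45 and GINS2 lie inside the gene and that of GINS1 before it.
MCM2: cgtgaaccactTTTCGCGCgaaacctggtt
MCM3: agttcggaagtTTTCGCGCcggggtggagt
MCM7: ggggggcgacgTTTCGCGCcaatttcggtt
MCM10: ccggttggaatTTTGGCGggttcagctgt
CDC45: aggagccgtgaTTTGGCGggagtcttgac
GINS1: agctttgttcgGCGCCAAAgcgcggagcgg
GINS2: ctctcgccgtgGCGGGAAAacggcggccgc

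MCM6 is shown over all 250 bases before its start (chr2:135876444-135876693, minus strand), since it had the largest fall of the members under paclitaxel and since its upstream sequence holds the same run of letters at 2 places. In each run TTTGGCGC and, on the other strand, TTTCGCGC overlap. The runs begin at positions −152 and −90 from the start. MCM3 and MCM7 also hold a second of the longer words, beginning at −174 and −187, which is not shown above. MCM2 holds an overlapping pair too. Its second TTTCGCGC, on the other strand, begins at position 7, and only the first word is in capitals above. MCM7 changed by −0.28 ± 0.06 under paclitaxel. Whether the words bear on the falls was not tested.
MCM6: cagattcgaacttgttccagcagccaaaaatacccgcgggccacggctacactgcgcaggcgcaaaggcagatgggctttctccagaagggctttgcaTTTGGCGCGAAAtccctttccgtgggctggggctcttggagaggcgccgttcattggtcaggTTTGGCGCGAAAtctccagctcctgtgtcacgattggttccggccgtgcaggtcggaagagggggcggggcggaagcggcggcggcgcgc

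In untreated cells the ring subunits were the most abundant members. Levels between genes were compared only per length, as length-corrected CPM (TPM) over the tested genes, computed from the counts and the deposited gene lengths. TPM values were rescaled to the same total in every library, so the TMM factors do not enter them. MCM4 led in DMSO with 291 ± 21 TPM (SD, n = 4), followed by MCM3 with 267 ± 13 and MCM7 with 264 ± 15, and the ranges of these 3 over libraries overlapped. MCM2 (176 ± 10 TPM), MCM6 (111 ± 8.3 TPM) and MCM5 (84.1 ± 4.6 TPM) came next, each with a range apart from its neighbours. CDC45 stood at 75.7 ± 1.8 TPM, just under the lowest MCM5 library. GINS1 (57.9 ± 5.2 TPM) and MCM10 (47.5 ± 4.2 TPM) overlapped at their edge (lowest GINS1 library 50.35, highest MCM10 library 50.44 TPM), and GINS2 was lowest at 37.5 ± 8.4 TPM, overlapping MCM10. MCM4 and GINS2 thus differed most, although in the active complex ring subunits and GINS subunits are held in equal number. In every group MCM4 stayed first, GINS2 last, and MCM2, MCM6, MCM5 and CDC45 in between in that order. Under paclitaxel and in the combination MCM7 came second in place of MCM3, within overlapping ranges. GINS1 (35.05 ± 2.5 TPM) and MCM10 (38.2 ± 2.8 TPM) changed places under paclitaxel, within overlapping ranges. In the combination MCM5 (33.9 ± 1.8 TPM), CDC45 (33.6 ± 2.5), GINS1 (33.1 ± 4.2) and MCM10 (31.9 ± 1.9) overlapped and their order is not resolved.

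**Figure D1:**
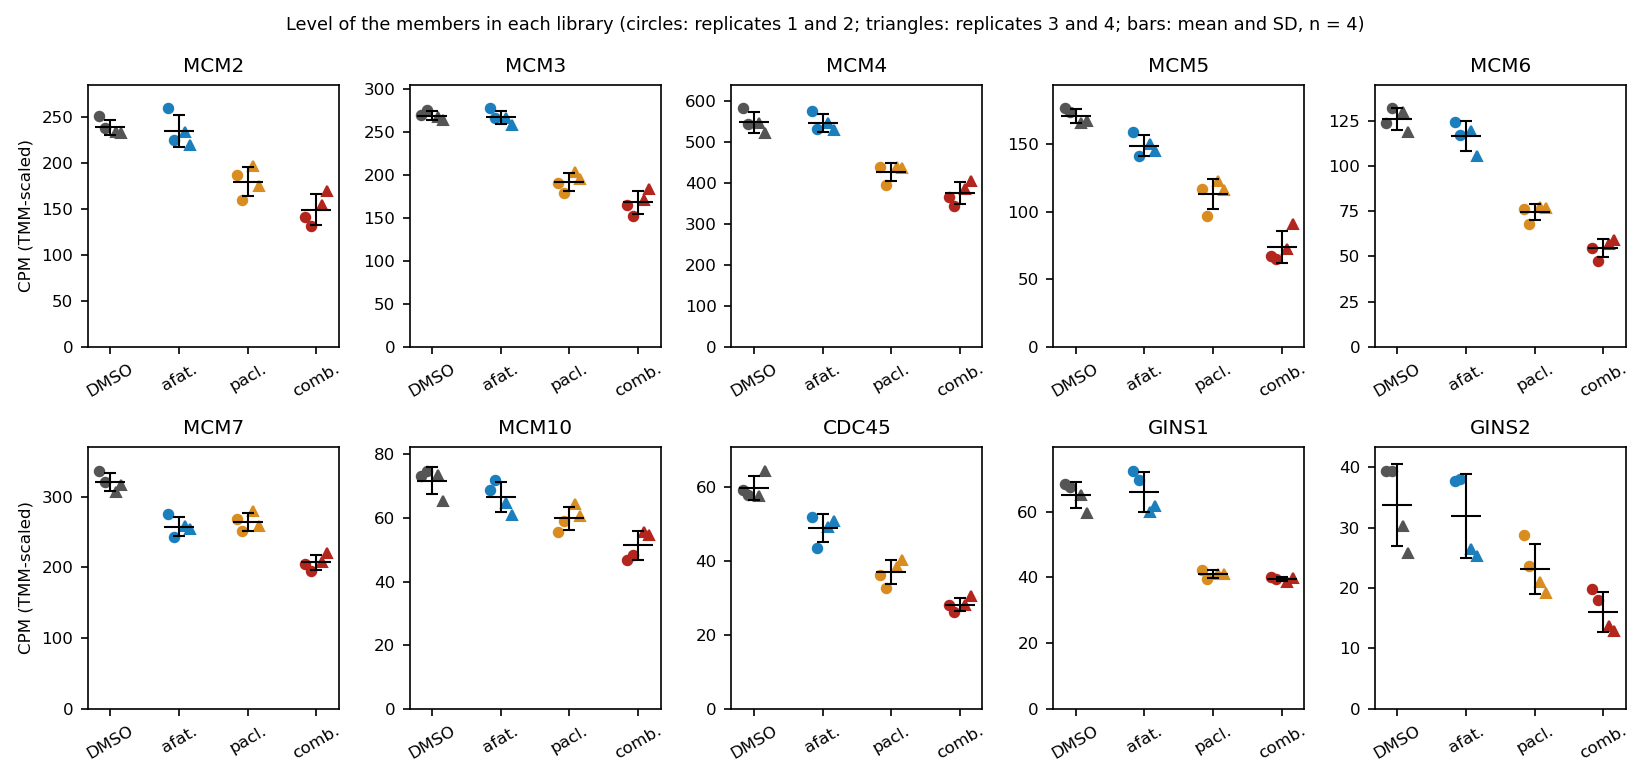
Level of each member in every library, as TMM-scaled CPM on axes that start at 0, by treatment (DMSO, afatinib, paclitaxel, combination). Circles are replicates 1 and 2, triangles replicates 3 and 4, and bars the mean and SD of 4 libraries; for all 10 members every combination library lies below every DMSO library.

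The first question was what each drug alone and both together did to these transcripts. All 10 members fell in the combination and all 10 fell under paclitaxel, while under afatinib alone MCM7 and CDC45 fell and the other 8 did not pass the test. The median log2 fold change over the members was −0.10 under afatinib, −0.51 under paclitaxel and −0.70 in the combination, against −0.0034, −0.00087 and −0.0047 over all tested genes. Of all tested genes, 10.1% were called lower under afatinib, 11.9% under paclitaxel and 19.5% in the combination. The 3 comparisons share the DMSO libraries.

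Among the ring subunits, MCM5 and MCM6 fell the most. MCM6, at chr2:135839626-135876426 on the minus strand of GRCh38, belongs to the side of the ring that contacts MCM2. Its level in replicates 1 to 4 was 124, 132, 130.2 and 119 CPM in DMSO, 125, 117, 119 and 105 CPM after afatinib, 76.2, 68.0, 77.2 and 76.6 CPM after paclitaxel, and 54.9, 47.3, 57.0 and 58.9 CPM in the combination. DMSO and afatinib overlapped, and paclitaxel and the combination were apart from them and from each other. The log2 fold change against DMSO was −0.76 ± 0.07 under paclitaxel (adjusted p = 1.21e-08 in edgeR) and −1.21 ± 0.07 in the combination (adjusted p = 6.83e-13), where the mean was 43.2% of that in DMSO. Under afatinib the value was −0.11 ± 0.07 (adjusted p = 0.246).

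MCM5 (chr22:35400063-35425430, plus strand) sits beside MCM2 at the gate through which the ring opens around DNA. It measured 176, 174, 166 and 167 CPM in DMSO, 159, 141, 150.3 and 145 CPM after afatinib, 116, 97.0, 123 and 116 CPM after paclitaxel, and 67.1, 64.7, 72.5 and 90.9 CPM in the combination. The 4 groups did not overlap in CPM at all. In the combination MCM5 fell by 1.22 ± 0.08 on the log2 scale (adjusted p = 3.35e-11 in edgeR) and under paclitaxel by 0.60 ± 0.08 (adjusted p = 6.8e-06). Afatinib alone gave −0.20 ± 0.08, which did not pass (adjusted p = 0.0772) but did with the replicate number as a block (adjusted p = 0.0488), and without afatinib replicate 1 (0.0361) or combination replicate 4 (0.0217), the library with its highest level in that group.

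MCM7 (chr7:100092728-100101940, minus strand), a ring subunit at the interface with MCM4, had another order of groups. Its libraries held 337, 321, 307 and 317 CPM in DMSO, 276, 242, 258 and 255 CPM after afatinib, 268, 251, 280.2 and 258 CPM after paclitaxel, and 206, 194, 208 and 221 CPM in the combination. Afatinib and paclitaxel overlapped, both lay below DMSO, and the combination lay below both. MCM7 fell by 0.31 ± 0.06 under afatinib (adjusted p = 0.00031 in edgeR), by 0.28 ± 0.06 under paclitaxel (adjusted p = 0.000825) and by 0.63 ± 0.06 in the combination (adjusted p = 2.5e-09). Paclitaxel minus afatinib was 0.04 ± 0.06 (adjusted p = 0.647), so the single drugs could not be separated for this subunit. The afatinib call was lost within replicates 3 and 4 alone (−0.29, adjusted p = 0.0869). Exons of AP4M1 on the opposite strand share 392 bases (8.94%) of the MCM7 exons, and AP4M1 had 4.76 to 6.63% of the counts of MCM7. The strand setting of the counting was not given in the sources used here, so reads from those bases could come from either gene.

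The other ring subunits, MCM2, MCM3 and MCM4, stayed level under afatinib within the spread and fell by less than MCM5 and MCM6 in the combination. MCM2 (chr3:127598223-127622436, plus strand), whose tail binds histones, ranged over 233 to 250.4 CPM in DMSO and 219.7 to 259 after afatinib, and over 159.8 to 197 after paclitaxel and 131 to 169.5 in the combination. Its log2 fold change was −0.41 ± 0.07 under paclitaxel (adjusted p = 0.000191 in edgeR) and −0.68 ± 0.07 in the combination (adjusted p = 5.19e-08). An antisense gene, AC023593.1, covers 22.7% of the exon bases of MCM2 and TPRA1 another 0.918%, both on the opposite strand. TPRA1 had 15.3 to 24% of the counts of MCM2 and AC023593.1 had no entry under its gene identifier in the count table used here, so reads from the shared bases of MCM2 too could come from either gene. MCM3 (chr6:52264009-52284881, minus strand), MCM5's neighbour in the ring, ranged over 264 to 276, 259 to 278, 179 to 203 and 152 to 184 CPM in the same order of groups, and changed by −0.49 ± 0.06 and −0.68 ± 0.06. MCM4 on chromosome 8, whose tail is phosphorylated by CDC7, ranged over 522 to 583, 530.0 to 576, 394 to 440.4 and 344 to 405 CPM, and changed by −0.36 ± 0.06 and −0.55 ± 0.06. For each of the 3, DMSO and afatinib overlapped in CPM while both groups with paclitaxel lay below them. Their afatinib values were −0.03 ± 0.07, −0.01 ± 0.06 and −0.0063 ± 0.06.

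Of the partners that turn the loaded ring into a helicase, CDC45 fell in every treatment. CDC45 (chr22:19479459-19520612, plus strand) binds the ring over the gate between MCM2 and MCM5 in the active complex. It stood at 59.2, 57.7, 57.5 and 64.4 CPM in DMSO, 51.9, 43.5, 49.2 and 50.7 CPM after afatinib, 36.1, 32.8, 38.5 and 40.2 CPM after paclitaxel, and 28.0, 26.0, 28.0 and 30.4 CPM in the combination. The 4 groups were apart, in the order DMSO, afatinib, paclitaxel, combination. The log2 fold changes against DMSO were −0.29 ± 0.06 (adjusted p = 0.00152 in edgeR), −0.70 ± 0.06 (adjusted p = 1.73e-08) and −1.09 ± 0.06 (adjusted p = 1.54e-12). The afatinib call was lost within each concentration set, at −0.29 in both (adjusted p = 0.0581 and 0.0975), and without the concentration term (adjusted p = 0.0919).

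GINS1 and GINS2, 2 of the 4 subunits of the GINS complex, differed in pattern. GINS1 (chr20:25407727-25452628, plus strand) measured 68.5, 67.4, 65.0 and 59.5 CPM in DMSO, 72.5, 69.5, 59.9 and 61.8 CPM after afatinib, 42.2, 39.5, 41.1 and 41.1 CPM after paclitaxel, and 40.03, 39.4, 38.5 and 39.7 CPM in the combination. Its libraries formed a high pair of groups without paclitaxel and a low pair with it, overlapping within each pair. The log2 fold change was −0.67 ± 0.06 under paclitaxel (adjusted p = 7.57e-09 in edgeR), −0.72 ± 0.06 in the combination (adjusted p = 2.32e-10) and 0.02 ± 0.06 under afatinib (adjusted p = 0.873).

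GINS2 (chr16:85676198-85690073, minus strand) stood at 39.3, 39.5, 30.3 and 25.8 CPM in DMSO, 37.7, 38.1, 26.4 and 25.4 CPM after afatinib, 28.8, 23.7, 21.0 and 19.2 CPM after paclitaxel, and 19.8, 18.0, 13.7 and 12.8 CPM in the combination. In every group replicates 3 and 4 were below replicates 1 and 2, and the difference between the sets was −0.48 ± 0.05 on the log2 scale (adjusted p = 3.35e-09 in edgeR). CDC45 (0.11 ± 0.04) and GINS1 (−0.09 ± 0.04) were the other members called between the sets, and the other 7 were not. Against DMSO, GINS2 fell by 0.54 ± 0.07 under paclitaxel (adjusted p = 3.66e-06) and by 1.07 ± 0.07 in the combination (adjusted p = 1.16e-11), and its value under afatinib was −0.09 ± 0.07 (adjusted p = 0.418). The paclitaxel call was lost without the concentration term (−0.54, adjusted p = 0.166 in edgeR) and with limma on the deposited corrected values (−0.14, adjusted p = 0.404). Exons of GSE1 on the opposite strand share 7 bases (0.214%) of the GINS2 exons. GSE1 had 80.2 to 328% of the counts of GINS2, and reads from those bases could come from either gene.

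MCM10 (chr10:13161554-13211104, plus strand), the scaffold that acts after the helicase is assembled, had the smallest estimated fall in the combination and under paclitaxel. MCM4 came close in the combination (−0.55 ± 0.06) and MCM7 under paclitaxel (−0.28 ± 0.06), and the order was not tested. The range of MCM10 was 65.4 to 74.9 CPM in DMSO and 60.9 to 71.8 CPM after afatinib. It was 55.6 to 64.3 CPM after paclitaxel and 46.8 to 55.7 CPM in the combination. DMSO overlapped with afatinib and lay above the other 2 groups. The changes were −0.26 ± 0.07 under paclitaxel (adjusted p = 0.00639 in edgeR) and −0.48 ± 0.07 in the combination (adjusted p = 2.71e-06), and −0.11 ± 0.07 under afatinib (adjusted p = 0.289). The paclitaxel call was lost without the concentration term (adjusted p = 0.108), within replicates 3 and 4 (adjusted p = 0.359) and with limma on the deposited corrected values (adjusted p = 0.0728).

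In single libraries the separation followed these calls. Every combination library lay below every DMSO library for all 10 members, an arrangement that 8.49% of all tested genes had. Under paclitaxel this held for 9 members, all but GINS2 (5.21% of all tested genes), and under afatinib for MCM5, MCM7 and CDC45 (4.08%). Within the concentration sets, the combination calls held for 10 members in replicates 1 and 2 and for 10 in replicates 3 and 4. The paclitaxel calls held for 10 and 6. In replicates 3 and 4 they were lost for MCM2 (−0.33, adjusted p = 0.0606 in edgeR), MCM4 (−0.28, adjusted p = 0.0797), MCM7 (−0.21, adjusted p = 0.181) and MCM10 (−0.15). Under paclitaxel each member fell further in replicates 1 and 2 than in replicates 3 and 4 (median log2 fold changes −0.57 and −0.44). In the combination the medians were −0.81 and −0.62. The difference in the falls between the sets was not tested. Without the concentration term the paclitaxel call of MCM7 was lost as well (adjusted p = 0.0538 in edgeR). Shares of all tested genes called in these alternative fits are not given here. A loss of calls particular to the members therefore cannot be told from a loss over all genes.

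**Figure D2:**
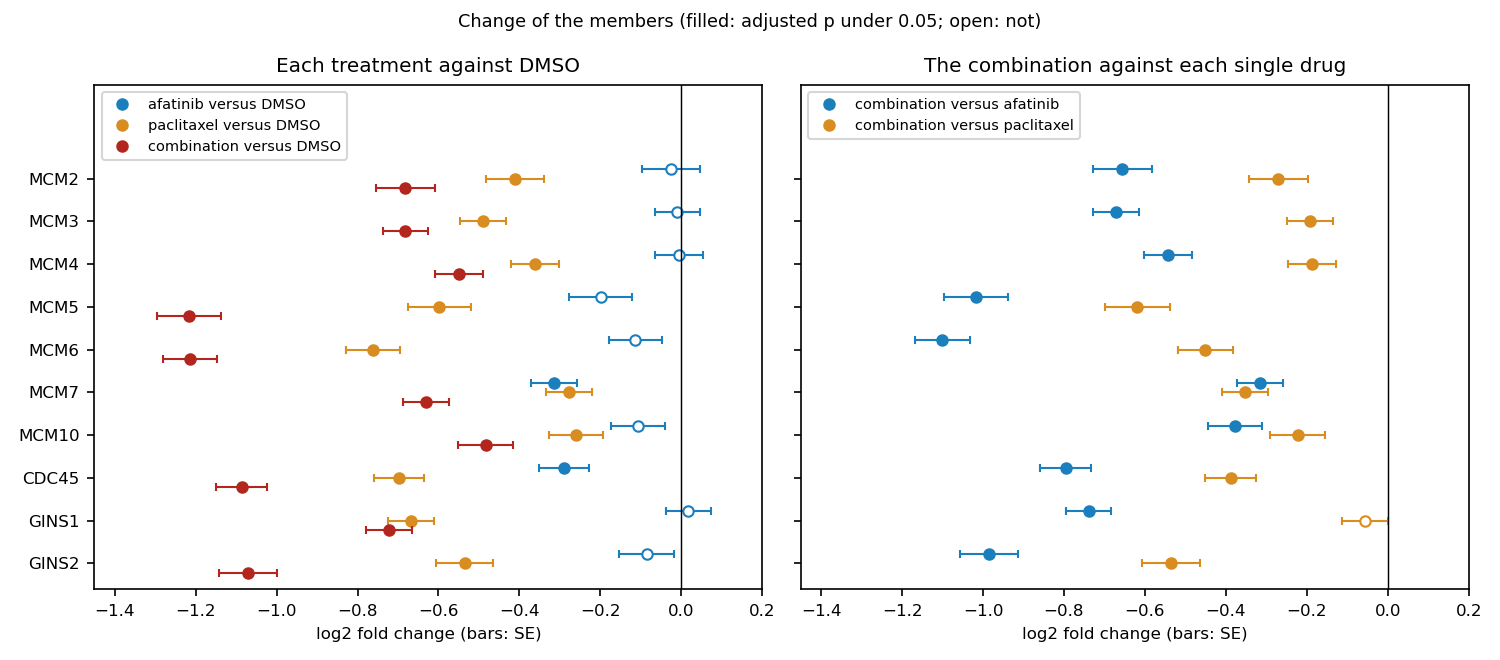
Log2 fold change of each member with its SE, on the left for the 3 treatments against DMSO and on the right for the combination against each single drug. Filled points passed an adjusted p of 0.05 and open points did not; MCM5, MCM6, CDC45 and GINS2 lie beyond −1 in the combination, and GINS1 is open against paclitaxel.

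The next comparison asked what the second drug added to the first. Adding paclitaxel to afatinib lowered all 10 members, from −0.32 ± 0.06 for MCM7 to −1.10 ± 0.07 for MCM6, when 14.3% of all tested genes were lower, and for each of the 10 every combination library lay below every afatinib library, as for 6.89% of all tested genes. Within replicates 3 and 4 alone the step was not called for MCM7 and MCM10 (adjusted p = 0.0715 and 0.197). Adding afatinib to paclitaxel lowered 9 members, when 11.6% of all tested genes were lower. MCM5 (−0.62 ± 0.08), GINS2 (−0.53 ± 0.07) and MCM6 (−0.45 ± 0.07) changed the most in this step, followed by CDC45 (−0.39 ± 0.06) and MCM7 (−0.35 ± 0.06). GINS1 alone did not pass, at −0.06 ± 0.06 (adjusted p = 0.526 in edgeR), and the difference between GINS1 and GINS2 was not itself tested. For MCM5, MCM6, MCM7 and CDC45 all combination libraries lay below all paclitaxel libraries, as for 5.74% of all tested genes. GINS2, whose groups overlapped, was not called without the concentration term (adjusted p = 0.161). The smaller steps of MCM2 (−0.27 ± 0.07), MCM10 (−0.22 ± 0.07), MCM3 (−0.19 ± 0.06) and MCM4 (−0.19 ± 0.06) were not called without that term either, nor when combination replicate 2, the library with the lowest level of MCM2, MCM3 and MCM4 in its group, was left out. That left 5 called members. The same 4 were not called within replicates 3 and 4, at −0.20 for MCM2 (adjusted p = 0.202 in edgeR), −0.18 for MCM10 (0.224), −0.17 for MCM3 (0.227) and −0.15 for MCM4 (0.313). MCM3 was also lost without paclitaxel replicate 3, MCM10 without combination replicate 1 or paclitaxel replicate 3, and MCM4 without combination replicate 1 or paclitaxel replicate 1, 3 or 4.

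Between the single drugs, 8 members were lower with paclitaxel than with afatinib, when 18.9% of all tested genes were. GINS1 (−0.68 ± 0.06) and MCM6 (−0.65 ± 0.07) differed most, and GINS2 (−0.45 ± 0.07) was lost without the concentration term (adjusted p = 0.159 in edgeR) and with limma on the deposited corrected values (−0.20, adjusted p = 0.202). MCM7 did not pass, and MCM10 (−0.15 ± 0.07, adjusted p = 0.075 in edgeR) passed when the replicate number was a block (adjusted p = 0.0431), and without afatinib replicate 4 or paclitaxel replicate 3. Its value was −0.30 within replicates 1 and 2 (adjusted p = 0.00525 in edgeR) and −0.0028 within replicates 3 and 4 (adjusted p = 0.988). Within replicates 3 and 4 alone MCM2 and MCM5 were lost (adjusted p = 0.0543 and 0.0648). In 7 members all paclitaxel libraries lay below all afatinib libraries, against 8.71% of all tested genes.

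The interaction, the combination minus both single-drug changes, was below 0 for all 10 members and was called for GINS2 alone, at −0.45 ± 0.10 (adjusted p = 0.0313 in edgeR), when 0.495% of all tested genes were called in this direction. For GINS2 the single-drug changes summed to −0.62 and the combination gave −1.07. MCM5 (−0.42 ± 0.11, adjusted p = 0.0714) and MCM6 (−0.34 ± 0.09, adjusted p = 0.0874) came next and did not pass. With the replicate number as a block all 3 passed, with adjusted p = 0.00358 for GINS2, 0.0309 for MCM5 and 0.0289 for MCM6. MCM5 and MCM6 also passed when combination replicate 4 or paclitaxel replicate 2 was left out. At the other end MCM7 (−0.04 ± 0.08), GINS1 (−0.07 ± 0.08) and CDC45 (−0.10 ± 0.09) had combination values within about 1 SE of the sum or little more. The GINS2 call rests on single libraries: it was lost, with adjusted p from 0.0507 to 0.0910, without afatinib replicate 1, 2 or 3, combination replicate 2 or 3, DMSO replicate 1 or 4, or paclitaxel replicate 1, 3 or 4. It was lost within each concentration set, at −0.43 in replicates 1 and 2 (adjusted p = 0.564) and −0.48 in replicates 3 and 4 (adjusted p = 0.442). It was also lost with log2 concentration as the covariate (−0.56, adjusted p = 0.0648) and without a concentration term (−0.45, adjusted p = 1.00).

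**Figure D3:**
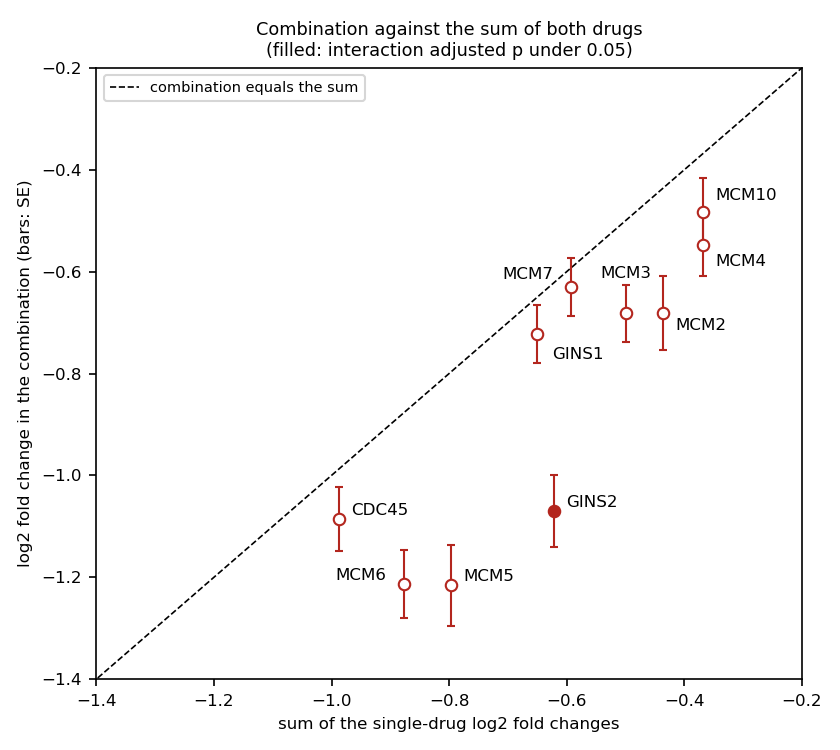
Log2 fold change of each member in the combination (vertical, bars are SE) against the sum of its changes under afatinib alone and paclitaxel alone (horizontal). All 10 points lie below the dashed line of equality; GINS2, filled, is the member whose interaction passed, at −1.07 against a sum of −0.62.

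Because the 6 ring subunits are needed in equal number, their transcripts were also compared as shares of their sum. The summed level was 1192 ± 66 TPM in DMSO and 1132 ± 110 TPM after afatinib, but 854 ± 61 TPM after paclitaxel and 685 ± 38 TPM in the combination (SD, n = 4). These sums are without TMM factors, so their falls need not equal those in TMM-scaled CPM. The share of MCM6 was 9.30 ± 0.45% in DMSO, 7.36 ± 0.14% after paclitaxel and 6.55 ± 0.23% in the combination, and that of MCM5 went from 7.05 ± 0.08% to 6.26 ± 0.29% and 4.96 ± 0.43%, with no overlap between DMSO and either group. MCM4 rose in share from 24.4 ± 0.55% to 27.3 ± 0.30% in the combination, again without overlap. MCM7 made up 22.2 ± 0.49% in DMSO, 19.0 ± 0.47% after afatinib, 24.6 ± 0.57% after paclitaxel and 23.4 ± 0.66% in the combination, so its share was lower with afatinib alone and higher in both groups with paclitaxel. MCM2 stayed between 14.7 and 15.5% on average. These shares carry no test, and a rise in share marks a smaller fall than that of the ring as a whole.

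**Figure D4:**
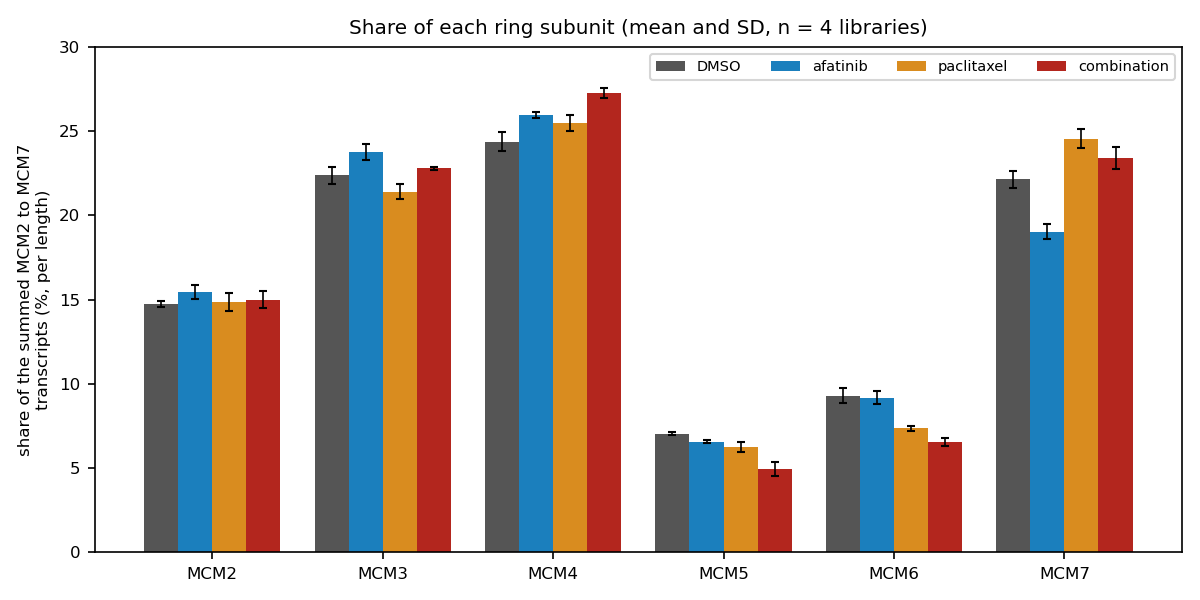
Share of each ring subunit in the summed MCM2 to MCM7 transcripts, in percent per length, by treatment (bars are means, error bars SD of 4 libraries). MCM5 and MCM6 have their lowest share in the combination, 4.96 and 6.55%, where MCM4 reaches 27.3%.

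The members were then set beside gene lists of the same pathway, described by counts and medians. Members and lists were both chosen with earlier results of these data known, so differences between them may in part reflect the choice. In the combination, where 19.5% of tested genes were lower and 18.5% higher, the lists that surround the helicase had medians nearer 0 than the members had. Of the 57 other replication genes tested, in 6 lists of replication steps, 37 were lower and 3 higher, with a median of −0.28. Under paclitaxel 29 were lower and 2 higher (DBF4 and DBF4B), when 11.9% of all tested genes were lower and 8.65% higher. Under afatinib 10 were lower and 2 higher, among them WDHD1 (0.19 ± 0.05, named after its value was seen), when 10.1% of all tested genes were lower and 9.00% higher.

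Of 10 origin licensing genes, which mark origins and load the ring, 5 were lower in the combination and none higher (median −0.14). The loaders CDC6 (−1.12 ± 0.07) and CDT1 (−0.51 ± 0.07) fell most, ahead of MCMBP (−0.36 ± 0.05), which binds MCM proteins, and ORC1 (−0.34 ± 0.07), the largest subunit of the origin recognition complex. Of 10 activation genes, 5 were lower and 3 higher (median −0.14). DBF4 (1.01 ± 0.08) and DBF4B (0.98 ± 0.06), the activating partners of the CDC7 kinase, rose, while DONSON (−0.69 ± 0.06) and TOPBP1 (−0.67 ± 0.06), which help bring GINS to the ring, fell. The other gene that rose was MTBP (0.21 ± 0.06), a partner of the activation factor TICRR, named after its value was seen. The remaining GINS subunits, named after their values were seen, lay nearer 0 than GINS1 and GINS2, a difference that was not tested: GINS3 was at −0.12 ± 0.06 (adjusted p = 0.126 in edgeR), and GINS4 fell by 0.17 ± 0.06 (adjusted p = 0.0281). Under paclitaxel neither passed, at −0.07 ± 0.06 and −0.09 ± 0.06. Of 4 other genes with MCM in their names, MCM8 (−0.18 ± 0.06) and MCM9 (−0.25 ± 0.08), which form a helicase of recombination repair, were lower. MCM3AP, whose protein binds MCM3 and is not a member of the MCM family, was higher (0.16 ± 0.05), and MCMDC2 at −0.29 ± 0.38 (adjusted p = 0.589 in edgeR) did not pass.

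Behind the helicase, 9 of 12 polymerase and primase genes were lower and none higher (median −0.39). POLA2 (−0.999 ± 0.061) and PRIM1 (−0.73 ± 0.07) belong to the complex that makes primers, and POLD3 (−0.69 ± 0.06) and POLD1 (−0.64 ± 0.07) to polymerase delta. Of 12 clamp and lagging-strand genes, 8 were lower (median −0.31), led by the sliding clamp PCNA (−1.03 ± 0.06) and the flap nuclease FEN1 (−0.86 ± 0.06), with DNA2 (−0.73 ± 0.06) and the clamp loader subunit RFC2 (−0.49 ± 0.06). All 7 genes of nucleotide supply were lower (median −0.43), among them RRM2 (−0.87 ± 0.05) and RRM1 (−0.33 ± 0.05) of ribonucleotide reductase, TYMS (−0.62 ± 0.06) and DUT (−0.49 ± 0.05). Of 6 fork protection genes 3 were lower (median −0.22): CLSPN (−0.74 ± 0.06), ATAD5 (−0.43 ± 0.06) and TIPIN (−0.33 ± 0.07), while WDHD1 was at −0.12 ± 0.05.

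Of 13 regulators of E2F-driven transcription, 10 were lower in the combination and 1 higher (median −0.64). Cyclin E2, CCNE2 (−1.98 ± 0.09), and the activators E2F1 (−1.51 ± 0.06) and E2F2 (−1.49 ± 0.10) had larger falls than any helicase member, a difference that was not tested, and the repressor E2F8 fell by 0.85 ± 0.06. The gene that rose, named after its value was seen, was RBL2 (0.41 ± 0.08), a relative of the retinoblastoma protein. Under afatinib E2F1 was at −0.05 ± 0.06, E2F2 at 0.04 ± 0.09 and E2F8 at −0.09 ± 0.06, none of them called. CCNE2, E2F1 and E2F2 were the 3 genes of this list called in the interaction, at −0.91 ± 0.13, −0.54 ± 0.09 and −0.71 ± 0.14, the same direction as GINS2.

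Most genes of G2 and mitosis were higher in the combination. Of 15 tested, 11 were higher and 3 lower in the combination (median 0.69), and 8 higher and 4 lower under paclitaxel (8.65% of all tested genes were higher). Under afatinib 1 was higher (AURKB, 0.27 ± 0.06), when 9.00% of all tested genes were. The 4 that fell under paclitaxel were TOP2A (−0.77 ± 0.08), CDK1 (−0.74 ± 0.07), UBE2C (−0.57 ± 0.09) and AURKB (−0.54 ± 0.06). The 3 that fell in the combination were CDK1 (−0.59 ± 0.07), UBE2C (−0.39 ± 0.09) and TOP2A (−0.35 ± 0.08), named like those above after their values were seen. KIF20A (1.36 ± 0.07), CENPE (1.21 ± 0.08), CCNB1 (1.10 ± 0.06) and PLK1 (0.85 ± 0.05), all motors, cyclins or kinases of mitosis, rose in the combination. In the interaction 6 of the 15 were higher, against 0.389% of all tested genes. This shift moved with the fall of the helicase members, and its part in that fall was not tested. The share of counts from mitochondrial genes was 3.36 ± 1.23% in DMSO, 4.98 ± 2.50% after afatinib, 4.94 ± 2.25% after paclitaxel and 5.98 ± 3.30% in the combination (SD, n = 4). Within each set every treated library lay above every DMSO library, with 2.26 and 2.38% in DMSO against 2.76 to 3.48% in treated replicates 1 and 2, and 4.09 and 4.72% against 5.03 to 9.71% in replicates 3 and 4. Its part in the fall of the members was not tested either.

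**Figure D5:**
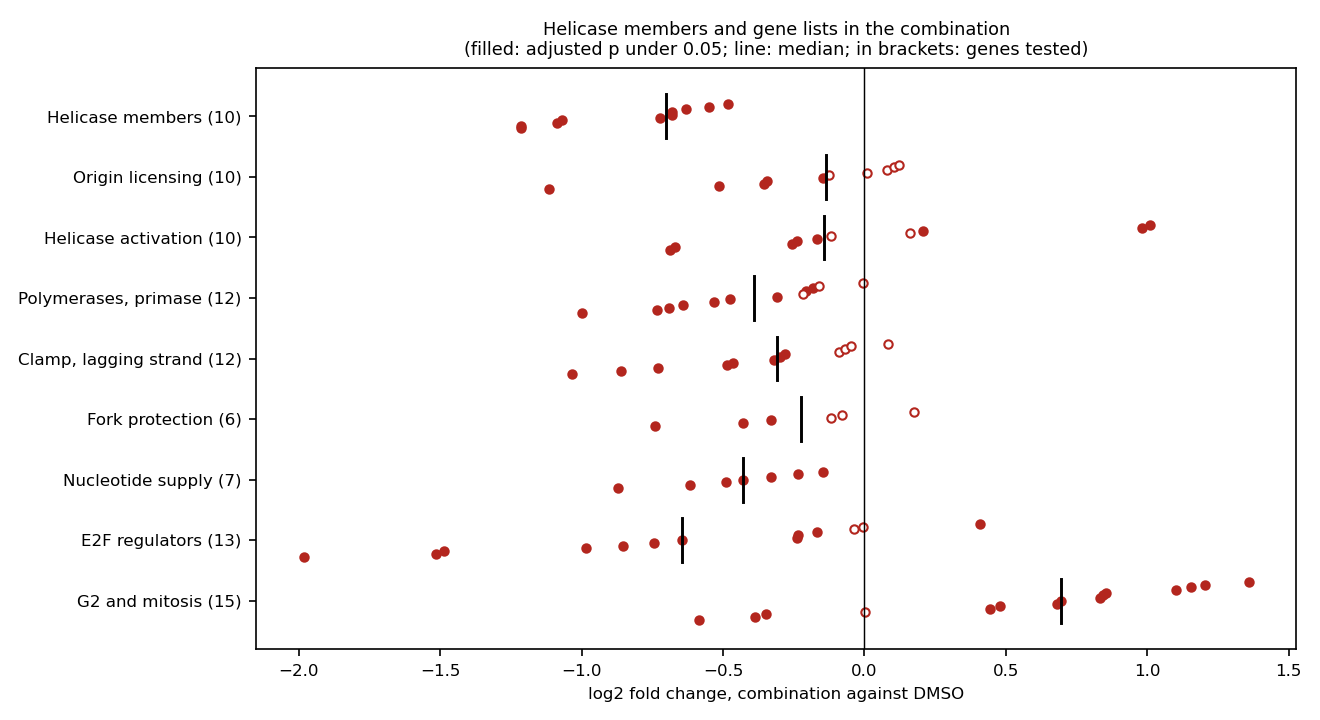
Log2 fold change in the combination against DMSO for the 10 helicase members and for the tested genes of 8 lists (number in brackets), with filled points for an adjusted p under 0.05 and a line at each median. The members lie between −1.22 and −0.48, the E2F regulators reach −1.98, and most genes of G2 and mitosis lie above 0.

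Across the 16 libraries, with the mean of each concentration set removed, the members followed each other to different degrees. As a description over libraries that share treatments, the Pearson correlation of a member's log2 CPM with the mean of the other 9 ran from 0.846 for MCM7 to 0.992 for MCM6, with MCM10 at 0.918 and GINS1 at 0.923. Among 9708 other genes with an average log2 CPM of at least 3, PCNA followed the mean of the members most closely (r = 0.993), and WDR76 (0.988) and TMEM164 (0.982) were also among the 10 closest. So were E2F1, FEN1, LYPLA2, TOPBP1, SP1 and HNRNPDL, from 0.982 down to 0.981. In the combination the genes named here changed by between −0.32 ± 0.05 (TMEM164) and −1.51 ± 0.06 (E2F1). When the set means were left in, 3 of the 10 closest genes remained among them.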

How the data were processed

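RNA was sequenced from 16 libraries of MDA-MB-231 cells in 4 treatment groups. The authors deposited gene counts, made with STAR 2.7.5b, featureCounts and Subread 2.0.1 on hg38, per the submitters' processing notes; for annotation and strand, the setting was not given in the sources used here. A second deposited table holds log2 values that the authors corrected for RNA concentration, per the file's name and values, and served as an alternative only. Gene lengths came with the deposited counts.

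Counts were filtered with filterByExpr (minimum count 10, minimum total 15), scaled with TMM and fitted in edgeR 4.0.16 (R 4.3.3; quasi-likelihood F-test, robust), with group and concentration set as terms and all 16 libraries in 1 fit. An SE is the size of the log2 fold change over √F. The common biological coefficient of variation was 7.41%. Genes with no symbol (171) took 0.036 to 0.0462% of counts. The fit was tested on simulated data. Alternatives used limma 3.58.1 on the log2 values, DESeq2 1.42.0, other scalings, filters and concentration terms, and each library left out. Libraries of the same replicate number deviated together (r 0.37 to 0.70 over 24 pairs, each above 0.1). Libraries of the same set and other number gave 0.38 to 0.67. The median was higher for the same number (0.59) than for the same set and other number (0.50). The ranges overlap, so this check cannot tell pairing by number from the set. The main fit held the set and not the replicate number. The replicate block was an alternative only, and the calls it changed are given below. Libraries of a group differed beyond counting noise in all pairs.

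Named are all 10 members, up to 4 genes of each list with the smallest p in the combination, and the 10 genes closest in pattern; some genes under these rules are not reported here. Members and lists were chosen with earlier results of these data known. Positions come from GENCODE v29 (GRCh38) and promoters from RefSeq (GRCh38.p14).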

Additional observations from a re-analysis of the deposited data

Results flagged for a closer look

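In paclitaxel replicate 2, MCM4 (393.966 CPM) and MCM6 (68.0062 CPM) lay apart from the other 3 paclitaxel libraries, which held 436 to 440.4 and 76.2 to 77.2 CPM. These were 2 of 40 groups of 4 libraries examined, and chance alone gives about 1 in 20. Without that library both genes stayed called against DMSO under paclitaxel.

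The change of GINS2 in the combination differed from the sum of its single-drug changes, with an interaction of −0.449 on the log2 scale, and that call was lost without any of several single libraries.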

How the results depend on the processing

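Across members, comparisons and alternatives, 1810 values kept their direction and side of the threshold, 97 lost a call, 20 gained one and 23 changed sign. Of the sign changes 21 were afatinib values close to 0. GINS1 gave −0.038 within replicates 3 and 4, and 0.0057 was the value of MCM3 within replicates 1 and 2 and 0.0068 that of MCM4 within replicates 3 and 4. With limma on the deposited corrected values GINS2, MCM2, MCM3 and MCM4 gave 0.056, 0.015, 0.036 and 0.030. With log2 concentration GINS2 gave 0.030. With upper-quartile factors MCM2, MCM3 and MCM4 gave 0.0038, 0.019 and 0.024. With single libraries left out the afatinib values ran from −0.019 to 0.049 for GINS1, −0.092 to 0.014 for MCM2, −0.039 to 0.015 for MCM3 and −0.041 to 0.031 for MCM4, and the interaction of MCM7 from −0.069 to 0.0084. Paclitaxel minus afatinib for MCM7 was −0.0015 within replicates 1 and 2.

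Against a null of 1.5-fold, 0 members were called under afatinib, 0 under paclitaxel, 0 between the single drugs, 0 for the combination against paclitaxel and 0 in the interaction. The same null left 4 for the combination against DMSO and 4 against afatinib, namely MCM5, MCM6, CDC45 and GINS2. Without a concentration term 1 was called under afatinib, 4 for the combination against paclitaxel and 0 in the interaction. Within replicates 1 and 2 the counts were 1 under afatinib and 0 in the interaction, and within replicates 3 and 4 they were 0 under afatinib, 6 under paclitaxel, 5 for the combination against paclitaxel and 0 in the interaction. The interaction count was 0 with log2 concentration and with limma, 2 with the Wald test of DESeq2, 3 with no filter on low counts and 3 with the replicate block. With single libraries left out it ran from 0 to 3, and the count for the combination against paclitaxel from 5 to 9. No library left out ended a call of the combination or of paclitaxel against DMSO. The replicate block changed 4 calls, those of MCM5 under afatinib, MCM10 between the single drugs, and MCM5 and MCM6 in the interaction. The cause of these changes was not tested. Shares of all tested genes called under the alternatives are not given here, so the counts of members above have no background beside them. The fewest counts of a member in a library were 518, for GINS2.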
